A study of Mus musculus with 4 samples.

Results

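Mt1, Mt2, Hmox1, Nqo1, Gclm, Gclc, Srxn1 and Txnrd1, the 8 genes of metallothionein and antioxidant defence described here, were taken by symbol from the 31253 genes counted in each of 4 mouse single-cell RNA libraries. Their Ensembl identifiers in the files are ENSMUSG00000031765 (Mt1), ENSMUSG00000031762 (Mt2), ENSMUSG00000005413 (Hmox1), ENSMUSG00000003849 (Nqo1), ENSMUSG00000028124 (Gclm), ENSMUSG00000032350 (Gclc), ENSMUSG00000032802 (Srxn1) and ENSMUSG00000020250 (Txnrd1). The libraries came from CT26 tumours, grafts of a cultured mouse colon carcinoma line, and from the lymph nodes that drain them (TDLN), in female mice of 4 to 8 weeks. Each tissue had 1 library labelled NanoCa, which the series title describes as a lipid nanoparticle with calcium, and 1 labelled mock. For the mock libraries the treatment tag reads no treatment, while another label field names NanoCa for all 4, and every NanoCa to mock ratio below rests on the names and tags. No source used here gives the dose, the timing, the number of mice or the sort gate. The labels give all 4 libraries the same batch. With 1 library per group there is no replicate, so the effect of treatment and the difference between 2 libraries cannot be told apart. No test was made, and every interval below covers counting error only.

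The filters on mitochondrial share and doublets left 10196 (NanoCa) and 8574 (mock) tumour cells and 10032 and 9403 TDLN cells. The median barcode held 12387, 11934.5, 4230.5 and 4417 UMIs (counted molecules) in that order. The labels call the tumour cells infiltrating immune cells stained for CD45, and the data go against that name. In the tumour 62.3% (NanoCa) and 62.1% (mock) of kept cells fell into carcinoma-like clusters, where the CD45 gene Ptprc was at 2.34 and 2.67 CPM (UMIs scaled to the summed UMIs of the class in a library), against 242 or more in the tumour immune classes compared. Carcinoma-like cells also made up 3.30% and 10.7% of the TDLN libraries, at a median of 58480 and 54221 UMIs per cell. Each pair of libraries shared 121 to 183 cell barcodes. The largest overlap, between tumour NanoCa and TDLN NanoCa, was 1.62% of the tumour NanoCa barcodes. Clusters were named only from marker genes, and 12.1%, 10.6%, 3.43% and 6.50% of the cells stayed unnamed. A class was compared where both libraries of a tissue held 100 cells or more of it, which left 5 classes in the tumour and 6 in TDLN.

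Most of these genes answer to the transcription factor NRF2, which the sensor KEAP1 holds back until electrophiles or oxidants modify it. NRF2 then pairs with small MAF proteins at antioxidant response elements, from which the heme-binding repressor BACH1 is displaced. Metallothioneins, small cysteine-rich proteins that bind zinc and copper, are driven mainly by the zinc sensor MTF1 through metal response elements, and also by glucocorticoids and inflammatory signals. In tumours, macrophages that take up dying red cells or cell debris are a known source of heme oxygenase, the product of Hmox1.

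Mt1 and Mt2 lie side by side on chromosome 8, and the 250 bases before their starts are shown because the genes were high in the same cell class. RefSeq promoters were matched for 6 of the 8 genes. The metal response element core was searched as TGCACNC or TGCGCNC on both strands, and the capitals below mark each match.
Mt1 (GRCm38.p6 chr8:94178839-94179088, plus strand): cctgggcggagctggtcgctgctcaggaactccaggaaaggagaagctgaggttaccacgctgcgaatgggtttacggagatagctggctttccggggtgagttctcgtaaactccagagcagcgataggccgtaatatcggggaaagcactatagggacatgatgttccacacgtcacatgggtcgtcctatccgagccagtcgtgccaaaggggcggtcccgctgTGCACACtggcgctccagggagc
Mt2 (GRCm38.p6 chr8:94172368-94172617, plus strand): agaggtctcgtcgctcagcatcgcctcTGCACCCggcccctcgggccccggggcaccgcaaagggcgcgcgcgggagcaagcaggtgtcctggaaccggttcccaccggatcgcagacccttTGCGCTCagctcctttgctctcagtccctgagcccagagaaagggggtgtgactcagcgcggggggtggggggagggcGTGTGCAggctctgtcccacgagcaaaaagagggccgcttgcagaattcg
The Mt2 window held 3 matches and the Mt1 window 1, while 21.4% of 32851 mouse promoter windows of this length held at least 1 and 1.26% held 3 or more. The antioxidant response element core, searched as TGACNNNGC on both strands, had 1 match in the windows of Mt2, Gclm and a Txnrd1 start, against 10.2% of all windows. A Gclm window held 2 matches to the metal element and the Srxn1 window 1. These are matches of letters and not measured sites. Bases after the start used for each window were not searched, so the counts do not give all such elements of Mt1 or Mt2. The Mt1 and Mt2 transcripts in GENCODE vM21 share no run of 30 bases, so reads of that length or longer can be told apart.

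NanoCa was compared with mock in each class with 1 rule. A gene was called higher or lower where at least 50 UMIs lay in both libraries together, the interval of the ratio excluded 1 and the CPM differed at least 1.5-fold. In the tumour, monocyte/macrophage-like cells had 3 of 7 tested members called lower (Hmox1, Mt2 and Srxn1) and none higher, where 2.79% of all tested genes were lower and 7.67% higher. Carcinoma-like cells had 1 of 8 lower (Hmox1) and none higher, against 3.83% and 5.81% of all genes. No member was called in tumour T-like cells (0 of 7; 2.92% of genes lower, 6.14% higher), B-like cells (0 of 4; 3.37% and 6.97%) or NK-like cells (0 of 4; 2.17% and 5.5%). The tumour calls thus lay in the myeloid and carcinoma-like cells, but Hmox1 did not reach 50 UMIs in B-like or NK-like cells. In NK-like cells its 4 (NanoCa) and 34 (mock) UMIs gave log2 -2.47 (-4.42 to -0.98). The lack of calls in these 2 classes is therefore not read as a lack of difference.

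In TDLN, B-like cells had 5 of 7 members called lower (Mt1, Mt2, Hmox1, Gclm and Gclc) and none higher, where 8.69% of genes were lower and 3.89% higher. T-like cells had 4 of 7 lower (Mt1, Mt2, Gclm and Srxn1) and none higher, against 7.81% and 2.33%. NK-like cells had Mt1 and Gclm lower of 4 tested (5.65% of genes) and Txnrd1 higher (7.07%). Carcinoma-like cells had 2 of 8 lower (Gclm and Gclc) and none higher, against 6.58% and 7.26%, and monocyte/macrophage-like cells 1 of 7 lower (Mt2) and none higher, against 8.37% and 7.38%. In mature DC-like cells, dendritic cells that carry antigen to the node, Gclm was lower of 5 tested (4.59% of genes) while Gclc and Txnrd1 were higher (6.22%). Of these 22 calls, 8 remained with each cell thinned to 1000 UMIs and 3 at 2-fold.

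**Figure D1:**
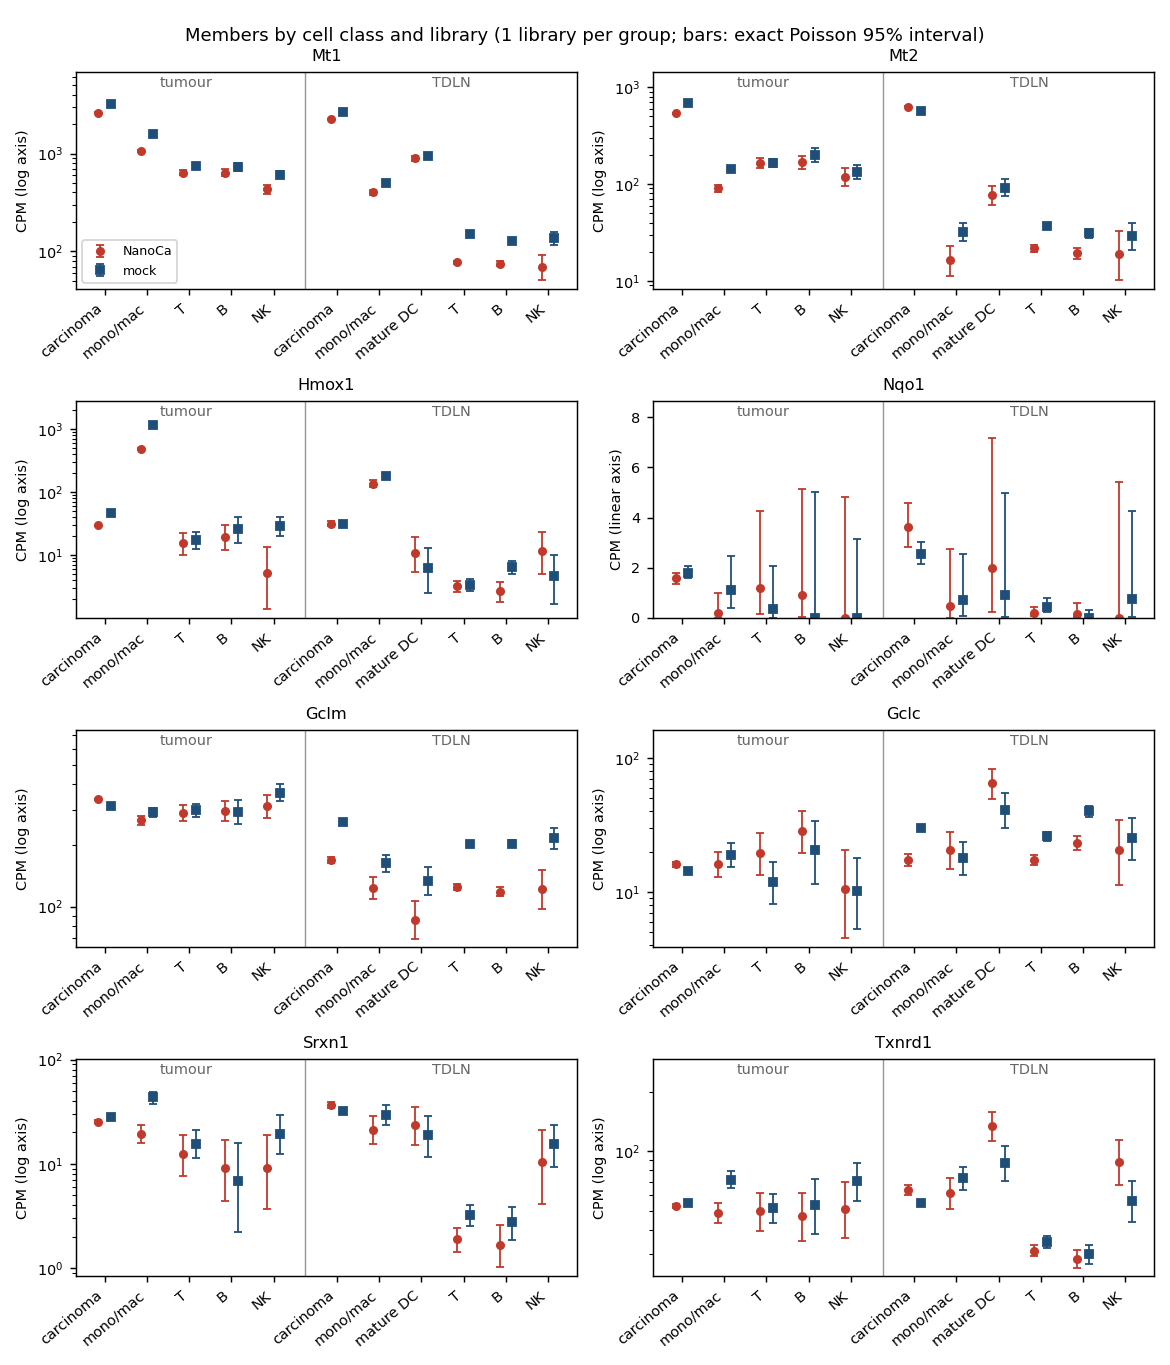
CPM of the 8 genes by cell class and library (red circles NanoCa, blue squares mock; bars are exact Poisson 95% intervals, the CPM axis is logarithmic except for Nqo1). Among the plotted classes Mt1 stands highest in carcinoma-like cells (2252 to 3248 CPM) and Hmox1 in monocyte/macrophage-like cells (136 to 1127 CPM) of every library.

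**Figure D2:**
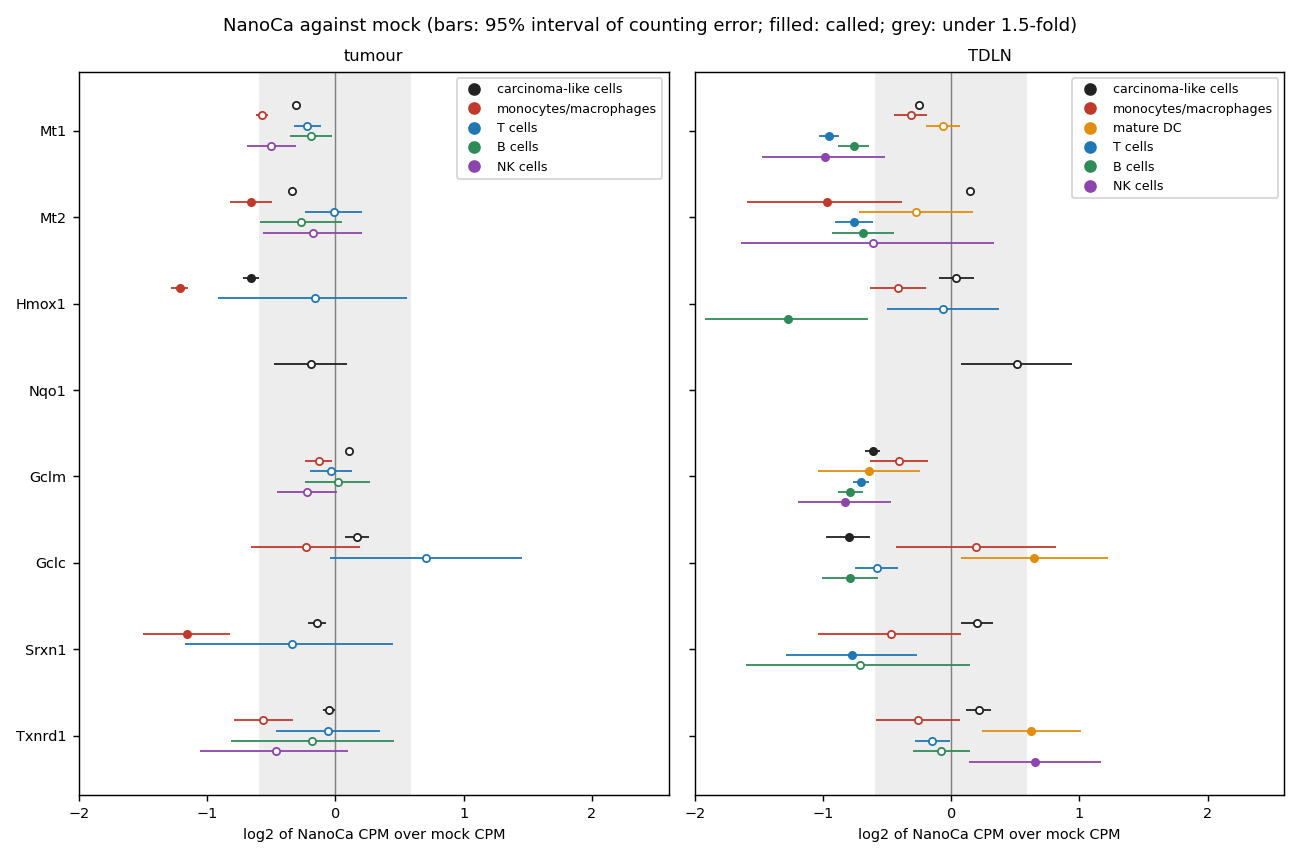
NanoCa over mock on the log2 scale for each gene with enough UMIs, by class, with 95% intervals of counting error (filled points were called, the grey band is under 1.5-fold). In the tumour the most negative point is Hmox1 in monocyte/macrophage-like cells at -1.22, and in TDLN the Gclm points all lie to the left of 0.

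Among the classes compared, Mt1 was highest in carcinoma-like cells of all 4 libraries. There it stood at 2623 CPM in tumour NanoCa, 3248 in tumour mock, 2252 in TDLN NanoCa and 2686 in TDLN mock. Next came monocyte/macrophage-like cells in the tumour (1057 and 1573 CPM) and mature DC-like cells in TDLN (894 and 935 CPM), each apart from its neighbours in the order beyond counting error. TDLN monocyte/macrophage-like cells held 400.2 CPM with NanoCa and 498 with mock. Lymphocytes were lowest: tumour T-like and B-like cells held 637 to 741 CPM, and TDLN T-like, B-like and NK-like cells 69.1 to 149.5. Mt2 was also highest in carcinoma-like cells, with 536 and 679.5 CPM (NanoCa and mock) in those of the tumour and 629.9 and 568 in those of TDLN. Mature DC-like cells again came second in TDLN. Below carcinoma-like cells the tumour classes were not apart from their neighbours for Mt2, and monocyte/macrophage-like cells held 90.3 and 142.5 CPM.

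Mt1 was lower with NanoCa in all 5 tumour classes, with each interval below 1, although in none by 1.5-fold. Of 4079 genes tested in all 5 classes, 53 (1.30%) had every interval below 1. The drop was largest in monocyte/macrophage-like cells, where 5828 UMIs with NanoCa stood against 8388 with mock (log2 -0.57, interval -0.62 to -0.52), and -0.31 in carcinoma-like cells. Tumour NK-like cells held 431 against 609 CPM (log2 -0.50), T-like cells 637 against 741 (-0.22) and B-like cells 639 against 729.5 (-0.19). In tumour T-like and B-like cells Mt1 did not exceed free RNA (described below) in either library. In NK-like cells free RNA would give 87.8% (NanoCa) and 76.0% (mock) of the Mt1 level. Over the alternatives the NK-like log2 ratio of Mt1 ran from -1.48 to 0.23, so its direction was not stable. The 5 classes can therefore not be counted as separate observations. Mt2, the partner gene, was called lower in tumour monocyte/macrophage-like cells at 90.3 against 142.5 CPM (log2 -0.66, -0.82 to -0.49). That call was lost without doublet removal (-0.51), with the members among the clustering genes (-0.51), at cluster resolution 0.5 (-0.37) and in thinned cells (-0.37). In tumour carcinoma-like cells its log2 ratio was -0.34, and in tumour T-like cells the levels of 164 and 165 CPM had overlapping intervals.

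In TDLN, Mt1 was called lower with NanoCa in the 3 lymphocyte classes and Mt2 in T-like and B-like cells. T-like cells held 77.2 CPM of Mt1 with NanoCa and 149.5 with mock (2342 and 3719 UMIs; log2 -0.95, -1.03 to -0.88), B-like cells 74.95 and 126.9 (-0.76), and NK-like cells 69.1 and 137 (-0.98). Mt2 was at 21.7 against 36.7 CPM in T-like cells (-0.76) and at 19.3 against 31.1 in B-like cells (-0.69), while in NK-like cells its interval held 1. After subtraction of free RNA (next paragraph) Mt2 in T-like cells was at -0.35 and no longer called. In the other TDLN classes Mt1 was not called: carcinoma-like cells were at log2 -0.25, monocyte/macrophage-like cells at -0.32 and mature DC-like cells at -0.06. Mt2 was called lower in TDLN monocyte/macrophage-like cells (16.3 against 31.9 CPM, from 33 and 90 UMIs). Free RNA would give 59.7% and 47.7% of those levels, and the call was lost with it subtracted and in thinned cells. In TDLN carcinoma-like cells Mt2 lay the other way, at 629.9 against 568 CPM (log2 0.15).

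Free RNA, molecules shed by other cells into the droplets, was estimated with Rhox5, a homeobox gene that marked the carcinoma-like cells here at 339 to 404 CPM. The profile of free RNA was taken as the summed UMIs of all cells of a library, not from empty droplets. The estimate is thus rough and can exceed the measured level. TDLN T-like cells held 10.9 CPM of Rhox5 with NanoCa and 19.3 with mock, and B-like cells 11.1 and 15.4. Scaled by Rhox5, free RNA alone would give TDLN T-like cells 67.0 and 151 CPM of Mt1, which is 86.7% and 101% of what was measured, and B-like cells 68.1 and 121 CPM, 90.9% and 95.2%. With mock, the Mt1 of both classes did not exceed free RNA beyond counting error, while with NanoCa a small remainder did. The log2 ratio in B-like cells after subtraction, 0.20, therefore rests on a mock level that cannot be told from free RNA. NK-like cells held 69.1 CPM beside 90.2 from free RNA with NanoCa, and 137 beside 90.1 with mock, where a remainder was left. These Mt1 differences are not read as expression in T-like and B-like cells. In the tumour the same sum came to 768 and 716 CPM for T-like cells, 121% and 96.6% of their Mt1. For tumour B-like cells it came to 740 and 838 CPM, 116% and 115%. Monocyte/macrophage-like cells of the tumour are different: free RNA would give 238 and 348 CPM, 22.5% and 22.1% of their Mt1, and the log2 ratio after subtraction was -0.61.

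The count of Mt1 UMIs per Mt2 UMI also differed between classes. It was 4.89 and 4.78 in tumour carcinoma-like cells (NanoCa and mock), 3.58 and 4.73 in those of TDLN, and 3.56 to 4.68 in the lymphocyte classes of both tissues. Monocyte/macrophage-like cells stood apart at 11.7 (10.7 to 12.8) and 11.0 (10.2 to 11.9) in the tumour and at 24.6 and 15.6 in TDLN, and mature DC-like cells at 11.7 and 10.1. Carcinoma-like cells thus held the pair in another proportion than the monocyte/macrophage-like and mature DC-like cells, while the lymphocytes held it in about the proportion of carcinoma-like cells. Fibroblast-like cells, too few to compare between libraries in either tissue, had 4.50 to 5.02 Mt1 UMIs per Mt2 UMI at 2975 to 4438 CPM of Mt1.

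**Figure D3:**
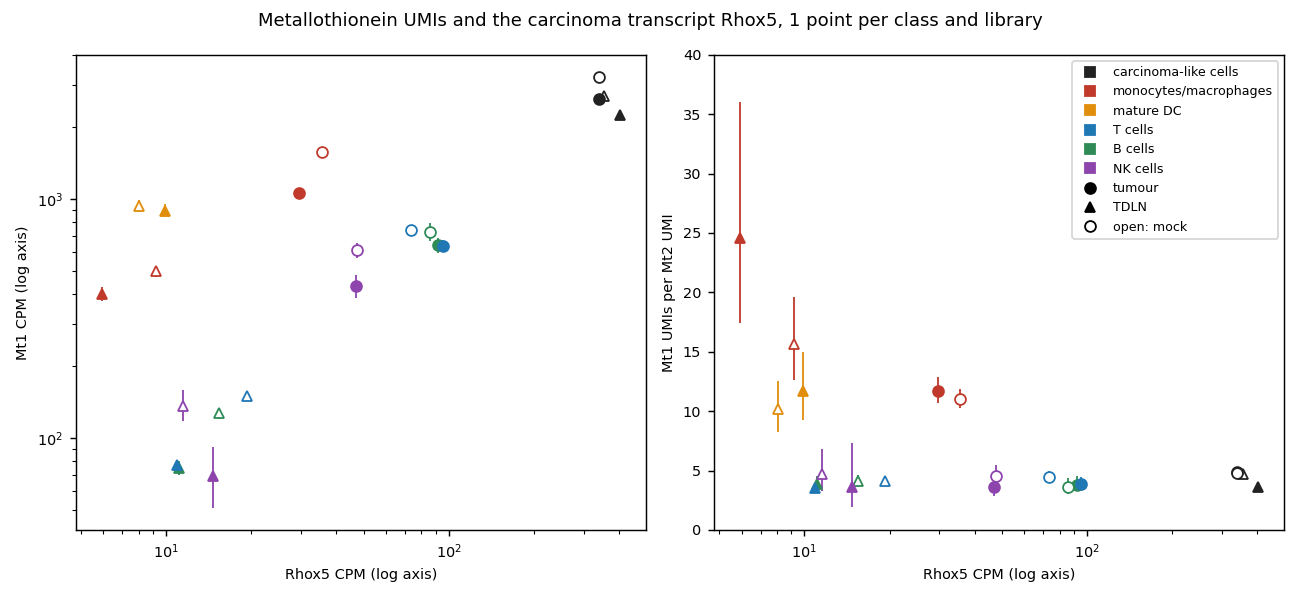
Left, Mt1 CPM against Rhox5 CPM, both on log axes, with 1 point per class and library (circles tumour, triangles TDLN, open symbols mock). Right, Mt1 UMIs per Mt2 UMI with 95% intervals; the monocyte/macrophage-like and mature DC-like points (10.1 to 24.6) lie above the carcinoma-like and lymphocyte points (3.56 to 4.89).

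Carcinoma-like cells of the tumour were not uniform. Among clusters with at least 100 cells in a library, Mt1 ran from 1256 to 3351 CPM over 10 clusters with NanoCa and from 1026 to 4366 CPM over 9 with mock. The top cluster in both libraries was led by Slurp1 and the aldehyde dehydrogenase Aldh3a1, and it held 3351 and 4366 CPM. The bottom cluster, led by Cacnb2 and Zfpm2, had the lowest Mt1, Mt2 and Gclm of both libraries and the highest Gclc (75.8 and 72.7 CPM) and Txnrd1 (139.8 and 152 CPM). Its cells had a median mitochondrial share of 5.085% and a median of 6289 UMIs, and the part of these in its levels was not tested. Of the 9 clusters with at least 100 cells in each library, Mt1 was lower with NanoCa in 8 and Mt2 in 8, each with intervals apart. That bottom cluster was the exception, at 1256 CPM of Mt1 with NanoCa and 1026 with mock. It and a cluster led by the matrix and stromal genes Ogn, Apod and Mgp had the fibroblast markers as their best matching list, although Xist stood at 5.39 and 1.62 CPM in them against 246 in the fibroblast-like cells. With these 2 clusters left out, a choice made after the data were seen, the class had the same single call and log2 ratios of -0.32 for Mt1, -0.36 for Mt2 and -0.77 for Hmox1.

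**Figure D4:**
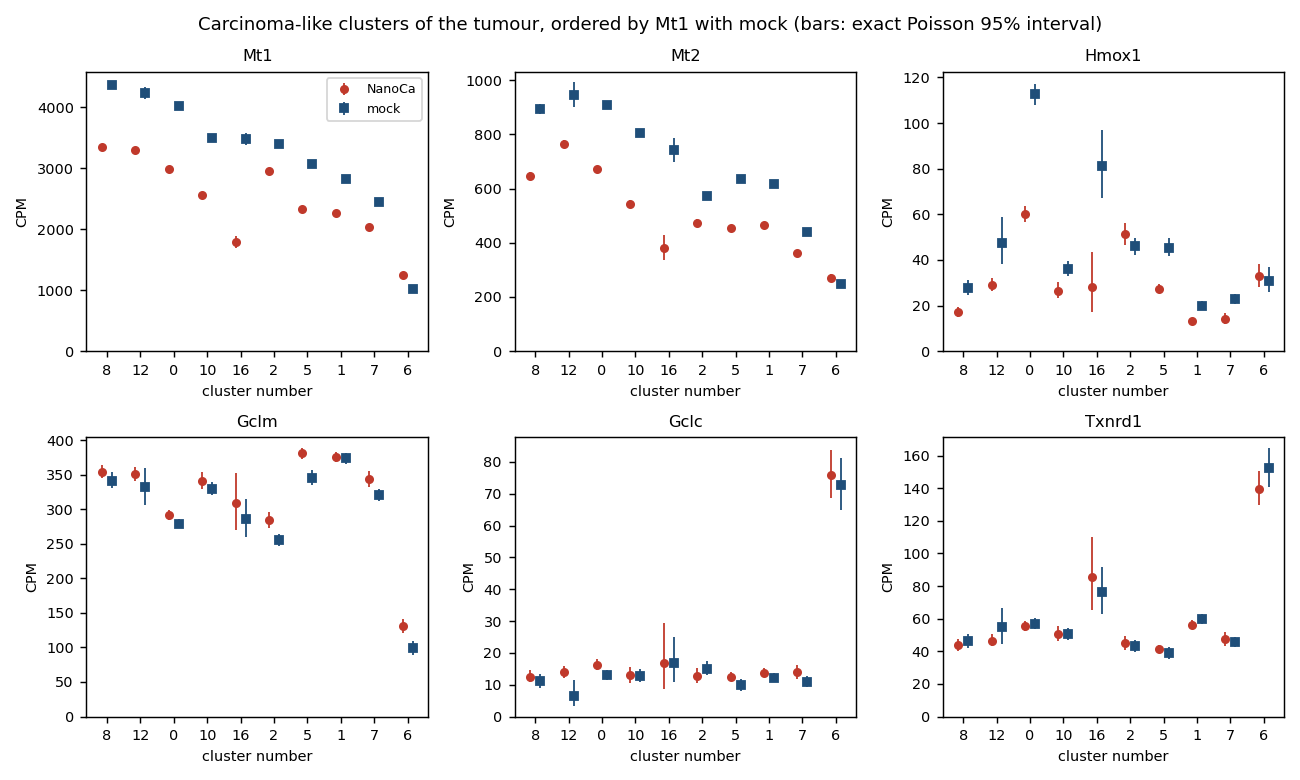
CPM of 6 genes in the carcinoma-like clusters of the tumour, ordered by their Mt1 in mock (red circles NanoCa, blue squares mock; bars are exact Poisson 95% intervals). Cluster 6 has the lowest Mt1 (1256 and 1026 CPM) but the highest Gclc (75.8 and 72.7 CPM), and cluster 0 the highest Hmox1 (60.1 and 112.5 CPM).

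Hmox1 encodes heme oxygenase 1, which splits heme into biliverdin, carbon monoxide and iron. Among the classes compared it was highest in monocyte/macrophage-like cells: 486 CPM in tumour NanoCa, 1127 in tumour mock, 136 in TDLN NanoCa and 181 in TDLN mock. Of these classes, carcinoma-like cells followed at 29.5, 46.6, 31.5 and 30.7 CPM. Neutrophil-like, fibroblast-like and endothelial-like cells of the tumour, too few to compare, held more than carcinoma-like cells of the same library (last paragraph). The lymphocyte classes ranged from 2.67 to 28.8 CPM. In tumour T-like cells the measured 15.3 and 17.1 CPM stood beside 14.99 and 20.3 CPM from free RNA alone, and free RNA made up only a small share of the monocyte/macrophage-like level (0.957% and 0.875%). A UMI of Hmox1 was seen in 53.6% and 57.8% of tumour monocyte/macrophage-like cells (median 6081 and 7158.5 UMIs per cell) and in 3.35% and 4.95% of tumour T-like cells (1952 and 2395 UMIs). With each cell thinned to 1000 UMIs, the shares in monocyte/macrophage-like cells were 20.3% and 22.5%.

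In tumour monocyte/macrophage-like cells Hmox1 fell to 2677 UMIs with NanoCa from 6013 with mock (839 and 626 cells; log2 -1.22, -1.28 to -1.15). That difference sat in the cells with the most Hmox1. The 10% of cells with the most Hmox1 UMIs, 83 with NanoCa and 62 with mock, held 72.6% and 87.5% of all its UMIs, at 2519 and 6239 CPM. The remaining cells held 734 and 754 UMIs, or 155 and 168 CPM. Cells with 100 or more Hmox1 UMIs numbered 4 with NanoCa and 15 with mock, and the highest single cell held 154 and 664 UMIs. Leaving out the highest cell of each library gave log2 -1.13, still past the rule.

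Carcinoma-like cells of the tumour also held less Hmox1 with NanoCa (3888 against 5497 UMIs; log2 -0.66, -0.72 to -0.60), in 7 of 9 clusters with intervals apart. The level was highest in the cluster led by Car6 and Lcn2, at 60.1 and 112.5 CPM, and lowest in a cluster led by the mitotic genes Ube2c and Pbk, at 13.2 and 19.9 CPM. The class was no longer called after subtraction of free RNA (log2 -0.54) or without doublet removal (-0.48). In TDLN carcinoma-like cells the ratio was 0.04 with an interval that held 1. Tumour NK-like cells held 4 and 34 UMIs, too few for the rule. TDLN B-like cells were called lower from 32 and 73 UMIs (2.67 against 6.44 CPM). Free RNA would give 53.8% and 29.8% of those levels, and the call was lost in thinned cells. In TDLN monocyte/macrophage-like cells 1 cell held 157 of the 275 UMIs with NanoCa, and the log2 ratio was -0.41 with that cell and -1.30, then called, without the highest cell of each library.

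The tumour monocyte/macrophage-like cells with the most Hmox1 UMIs were set against the other cells of their class in the same library. Since Hmox1 chose them, its own difference is no result, and they were deeper too, with a median of 8180 against 5693 UMIs with NanoCa and 12693.5 against 6779.5 with mock. Mt1 was higher in them in both libraries, at 1907 against 919 CPM with NanoCa (log2 1.05, 0.97 to 1.14) and 3341 against 1241 with mock (1.43, 1.36 to 1.49). Of the other 6 members tested, 5 were called higher in both libraries (Mt1, Mt2, Gclc, Srxn1 and Txnrd1), against 1.26% of 7451 genes, and none was called lower in both, against 2.85%. Gclc, the catalytic subunit of glutathione synthesis, was at 33.7 against 13.3 CPM with NanoCa and 54.6 against 12.2 with mock. Gclm, its modifier subunit, was not called in either (log2 0.08 and 0.32). Ranked by the share of Hmox1 in each cell's UMIs instead, an alternative chosen after the data were seen, 4 of the 6 remained called and Srxn1 did not.

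Heme and iron genes were read in the same split. Of 14 tested, 4 were called higher in both libraries: Slc40a1, the iron exporter ferroportin, at 59.6 against 12.4 CPM with NanoCa (log2 2.26) and 89.0 against 7.57 with mock (3.55), Cd163, the hemoglobin scavenger receptor, at log2 2.05 and 2.19, Slc48a1, a heme transporter, at 0.92 and 1.93, and Ftl1, ferritin light chain, at 0.64 and 1.25. None was called lower in both. Of all tested genes 1.26% were called higher in both and 2.85% lower. The ferritin heavy chain gene Fth1 was at 0.37 with NanoCa, under 1.5-fold, and 1.11 with mock. Hmox2, the constitutive heme oxygenase, was at 0.06 and 0.10 with intervals that held 1. The list medians were 0.38 and 0.28, beside -0.02 and -0.11 for all genes.

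**Figure D5:**
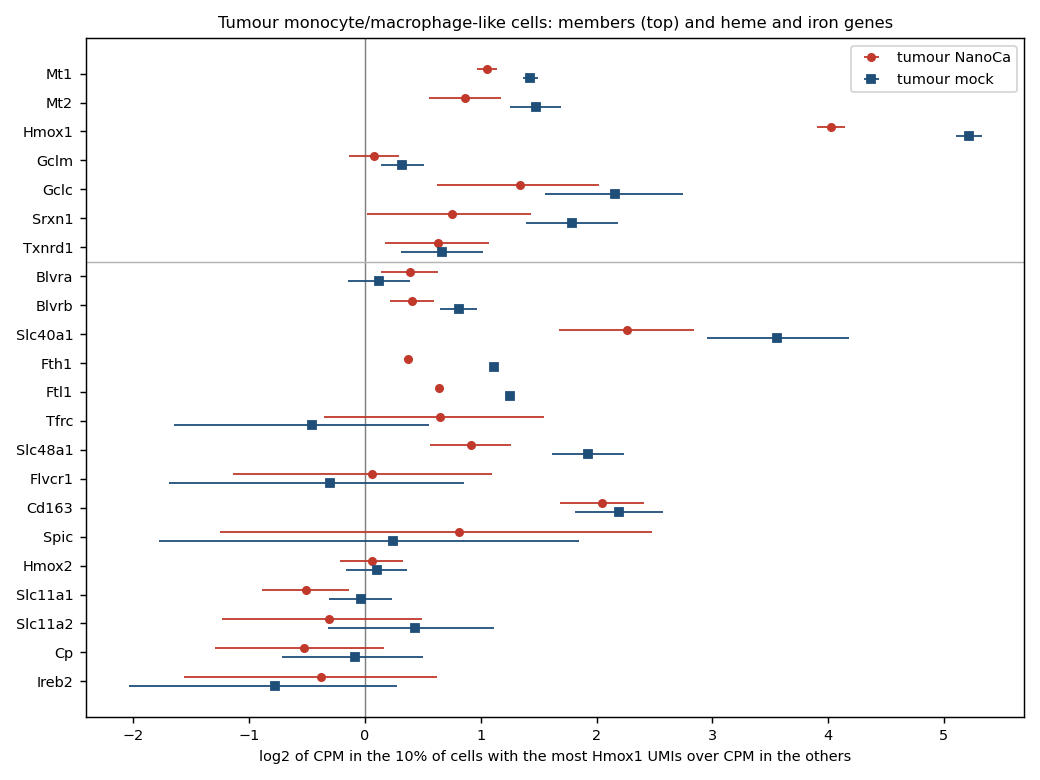
Log2 of the CPM in the 10% of tumour monocyte/macrophage-like cells with the most Hmox1 UMIs over the CPM in the others, by library, with 95% intervals of counting error (Hmox1 itself chose the cells). Slc40a1 (2.26 and 3.55) and Cd163 (2.05 and 2.19) lie farthest right among the heme and iron genes, and Gclm (0.08 and 0.32) nearest 0 among the members.

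Glutamate-cysteine ligase makes the rate-limiting step of glutathione synthesis, with Gclc as its catalytic and Gclm as its modifier subunit. Gclm differed little between classes. Within a library its highest class stood 1.25 to 1.97 times above its lowest, from 266 to 364 CPM in the tumour and 86.2 to 259.6 in TDLN. Gclm was lower with NanoCa in all 6 TDLN classes with every interval below 1, as were 75 of 3699 genes (2.03%), and it was called in 5. T-like cells held 125 CPM against 203 (3780 and 5043 UMIs; log2 -0.70, -0.76 to -0.64), B-like cells 118 against 204 (-0.79), and NK-like cells 122 against 217 (-0.83). Carcinoma-like cells held 169.6 against 259.6 CPM (-0.61), mature DC-like cells 86.2 against 134 (-0.64), and monocyte/macrophage-like cells 123 against 163 (-0.41, not called). Free RNA would give 10.1% and 11.2% of the T-like level, and the ratio after its subtraction was -0.69. With cells thinned to 1000 UMIs the Gclm call was kept in T-like cells only. It was lost in B-like, NK-like, carcinoma-like and mature DC-like cells, and at 2-fold in all 5 classes.

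In the tumour the Gclm ratios lay between -0.22 and 0.11 and none was called. Carcinoma-like cells of the tumour held 337 CPM with NanoCa and 314 with mock, higher in all 9 clusters and with intervals apart in 4. Gclc was called lower in TDLN B-like cells (23.2 against 40.1 CPM; log2 -0.79) and carcinoma-like cells (17.3 against 30.1; -0.80), and T-like cells missed the fold at 17.4 against 26.1 (-0.58). In mature DC-like cells Gclc was called higher, at 64.4 against 41.1 CPM, but 1 cell held 24 of the 65 UMIs with NanoCa and without the highest cells the ratio was 0.15. Across the 22 sums of class and library, Gclm and Gclc had a Pearson r of -0.57 on log2(CPM + 1). The 2 subunits thus moved down together in TDLN B-like and carcinoma-like cells and did not share their order across cell classes. In thinned cells the carcinoma-like calls of both subunits were lost, and in B-like cells only that of Gclc was kept.

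Srxn1 encodes sulfiredoxin, which restores overoxidised peroxiredoxins, and Txnrd1 the cytosolic thioredoxin reductase. Srxn1 was lower with NanoCa in tumour monocyte/macrophage-like cells (19.4 against 43.3 CPM, 107 and 231 UMIs; log2 -1.16, -1.50 to -0.82). That call was lost in cells thinned to 1000 UMIs. In carcinoma-like cells Srxn1 was at 25.2 and 27.9 CPM in the tumour, lower in all 9 clusters but with intervals apart in none, and 36.7 and 31.9 in TDLN. TDLN T-like cells were called lower at 1.88 against 3.22 CPM, from 57 and 80 UMIs. Free RNA would give 61.2% and 60.5% of those levels, and the call was lost with it subtracted and in thinned cells. The NK-like classes of both tissues were at 9.13 to 19.5 CPM.

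Txnrd1 in tumour monocyte/macrophage-like cells was at 48.6 CPM with NanoCa and 71.8 with mock (log2 -0.56), just under 1.5-fold. That gene and Mt1 were called lower there with 2 other scalings of the class sums, at -0.66 and -0.67 by trimmed mean of M values. Over the 7 tested members the median was -0.57, beside 0.10 for all genes. Mature DC-like cells had the highest Txnrd1 of TDLN, 133.8 and 86.8 CPM (log2 0.62, called), though without the highest cell of each library the ratio was 0.56 and not called. In TDLN NK-like cells Txnrd1 was called higher from 60 and 73 UMIs (88.2 against 56.1 CPM), a call lost without doublet removal (log2 0.48) and in thinned cells. Elsewhere in TDLN it was between -0.26 and 0.22.

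Nqo1 encodes a quinone reductase that is often used as a readout of NRF2. It was near its detection limit everywhere. Carcinoma-like cells held 1.58 CPM in tumour NanoCa, 1.81 in tumour mock, 3.64 in TDLN NanoCa and 2.55 in TDLN mock, from 208, 213, 71 and 134 UMIs. No other class had more than 11 UMIs in a library. It was tested only in carcinoma-like cells, where it was called in neither tissue (log2 -0.19 and 0.52). A count of 0, as in tumour NK-like cells, allows up to 3.91 CPM with NanoCa and 2.54 with mock when 3 counts are taken as the limit, and the exact Poisson 95% intervals reach 4.81 and 3.13.

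The tumour was set against TDLN in the classes found in both. Monocyte/macrophage-like cells and lymphocytes held more Mt1 and Mt2 in the tumour with either label, though in T-like and B-like cells these levels lay close to free RNA. In tumour NK-like cells free RNA would give 87.8% and 76.0% of Mt1 (NanoCa and mock) and 64.3% and 71.2% of Mt2. In tumour monocyte/macrophage-like cells it would give 53.2% and 50.2% of Mt2. With mock, members called higher in the tumour were Mt1, Mt2, Hmox1 and Gclm in monocyte/macrophage-like cells, 4 of 7 (6.58% of all genes higher, 16.0% lower). In T-like cells they were 4 of 7, with Gclc lower (16.6%, 14.4% of genes higher and lower), in B-like cells 4 of 6, with Gclc lower (7.56%, 9.93%), and in NK-like cells 3 of 4, none lower (5.71%, 15.3%). Carcinoma-like cells had Hmox1 higher and Gclc lower of 8 (4.28%, 13.1%). With NanoCa the same 4 of 7 were higher in monocyte/macrophage-like cells (11.7%, 12.7%). The counts were 6 of 7 in T-like (19.5%, 12.8%) and 5 of 6 in B-like cells (12.6%, 11.5%), none lower in either. In NK-like cells 3 of 4 were higher and Txnrd1 lower (10.1%, 20.9%), and in carcinoma-like cells Gclm was higher and Nqo1 lower of 8 (4.43%, 11.1%). In tumour T-like and B-like cells Hmox1 did not exceed free RNA in either library, nor did Mt2 in B-like cells of both and T-like cells of NanoCa, or Srxn1 in T-like cells of NanoCa. With free RNA subtracted, 3 members in NanoCa T-like cells, 2 in NanoCa B-like cells and 2 in mock B-like cells stayed higher in the tumour. These 2 tissue comparisons share no library with each other, but each shares its libraries with the NanoCa ratios.

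In monocyte/macrophage-like cells Hmox1 rose from 181 CPM in TDLN to 1127 in the tumour with mock (log2 2.64, 2.51 to 2.77) and from 136 to 486 with NanoCa (1.84, 1.66 to 2.03). Mt1 rose by 1.66 and 1.40 there on the log2 scale, Mt2 by 2.16 and 2.47 and Gclm by 0.83 and 1.11. Srxn1 and Txnrd1 were called in neither. Heme and iron genes rose in 4 of 14 (Slc40a1, Fth1, Cd163 and Cp) with mock and in 7 of 14 with NanoCa, against 6.58% and 11.7% of all genes. Their medians were 0.23 and 0.60 beside -0.10 and -0.001 for all genes. Carcinoma-like cells differed less between tissues: Mt1 was at 0.27 and 0.22, and Gclc stood at 14.4 CPM in the tumour against 30.1 in TDLN with mock (-1.07). In T-like cells the Mt1 ratio of 2.31 (mock) and 3.04 (NanoCa) went with 73.4 and 95.4 CPM of Rhox5 in the tumour against 19.3 and 10.9 in TDLN. Genes tied to tissue dissociation moved too, with Hspa1a at 457 against 50.8 CPM (mock) and 1065 against 36.1 (NanoCa) in T-like cells, and their part in the ratios was not tested.

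Companion genes of the same pathways were read from lists, beside the median of all genes and the share of all genes called. In tumour monocyte/macrophage-like cells 2 of 10 regulators were called lower with NanoCa: Maff, a small MAF partner, at 34.5 against 76.1 CPM (log2 -1.14), and Sqstm1, which frees NRF2 from KEAP1, at 389 against 609 (-0.65). The list median was -0.13, beside 0.10 for all genes. Of all tested genes in that class 2.79% were lower and 7.67% higher, so counts of 1 in the lists below are not read as results. Of 22 other NRF2 targets 1 was lower, the cystine transporter Slc7a11, and 1 higher, Gstm1, with a median of -0.09. None of 14 heme and iron genes was called in that class (median -0.02). Of 10 zinc and metal transport genes 2 were higher, the zinc transporters Slc30a1 and Slc30a5 (median -0.07). Of 15 glutathione genes 1 was lower, again Slc7a11 (median 0.12), and of 15 thioredoxin and peroxide genes 1 was higher (median 0.03). That gene, Txnip, encodes an inhibitor of thioredoxin and was at 145.5 against 85.5 CPM (0.77), and Junb of the dissociation list was lower at 1109 against 1802 (-0.70).

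Carcinoma-like cells of the tumour had 0 of 10 regulators called and 2 of 24 other NRF2 targets higher (Gsr and Ptgr1), with list medians of -0.11 and 0.06. Of all tested genes there 3.83% were lower and 5.81% higher. In TDLN the other NRF2 targets were lower in 5 of 20 tested for B-like cells (Me1, Idh1, Gsr, Txn1 and Ptgr1; median -0.28; 8.69% of all genes lower) and in 4 of 24 for T-like cells (Me1, Gsr, Aldh3a1 and Akr1b8; median -0.14; 7.81% lower), and none was higher in either. Glutathione reductase, the product of Gsr, was also lower in TDLN carcinoma-like cells at 28.9 against 52.3 CPM (log2 -0.85). Txnip was higher in TDLN B-like cells (222 against 107 CPM; 1.06) and T-like cells (281 against 162; 0.79). In TDLN monocyte/macrophage-like cells 4 of 13 heme and iron genes were lower (Blvrb, Cd163, Slc11a1 and Cp), against 8.37% of all genes. The list median was -0.32, and that of all genes 0.01. The biliverdin reductase gene Blvrb was at 119 against 266 CPM (-1.16). Medians of all genes in these TDLN classes were -0.02 (B-like), -0.004 (T-like) and 0.04 (carcinoma-like).

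The genes most like each member were found by Pearson r of log2(CPM + 1) over the 22 sums of class and library, among 11337 genes. The sums share libraries, depth and free RNA, so these are descriptions. Mt1 was nearest to Hcfc1r1 (0.97), Tceal8 (0.97) and the chemokine gene Cxcl1 (0.96), and Mt2 to Rbfox2 (0.98), Dpysl3 (0.97) and Npdc1 (0.97). Hmox1 was nearest to the myeloid receptor gene Cd14 (0.94), Cxcl3 (0.94) and Mmp9 (0.93). Gclm came closest to Ndufb10 (0.85), Cnot6 (0.83) and Mif (0.83), and Gclc to Ppp4r2 (0.84), Fam32a (0.82) and Slc4a8 (0.82). Srxn1 was nearest to Zfhx3, Cdk14 and Ctbp2 (0.93 each), Txnrd1 to Gcnt2 (0.90), Cdkn1a (0.86) and Pik3cb (0.86), and Nqo1 to Frk (0.87), Erbb2 (0.84) and Ninj2 (0.83). Among the members the highest values were 0.89 for Mt1 with Mt2, 0.80 for Mt1 with Srxn1 and 0.73 for Srxn1 with Txnrd1, and Hmox1 with Mt2 was at 0.25.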

How the data were processed

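Tumour and TDLN cells were profiled with the 10x Genomics 3' v2 kit, per the labels' protocols. The authors deposited whole-number UMI counts for each gene and barcode, written by Cell Ranger 7.1.0, per the file headers. The genome build was not given in the sources used here. Any barcode over 10% mitochondrial UMIs was dropped, and none had under 200 genes, so 11215, 9281, 11013 and 10268 passed. The highest Scrublet doublet scores were removed at 0.8% per 1000 barcodes. Each tissue was clustered without integration on 2000 variable genes, the members and companion lists left out (30 components, 15 neighbours, Leiden resolution 1), giving 25 tumour and 24 TDLN clusters. Clusters were named from markers, at least 3 enriched 1.5-fold. Those with Ptprc and Xist both under 20% of the immune median and at least 3 carcinoma markers above immune clusters were called carcinoma-like. Shallow clusters without a carcinoma marker among their top 10 genes were kept out of that class. The Ptprc and Xist rule was known from earlier work on these data. UMIs were summed per class and library. CPM carry exact Poisson 95% intervals and ratios exact conditional binomial ones, which cover counting error only. Free RNA was estimated from Rhox5, or from Cd79a, Cd79b and Ms4a1 for carcinoma-like cells. Its profile was the summed UMIs of all barcodes of the library that passed, doublets included.

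All 8 members were named in every class, with at most 2 genes per direction, list and class at 50 CPM or more, and the 3 genes most like each member among those with 500 UMIs or more. Genes of the split by Hmox1, of the cluster descriptions and those named only within a count were chosen after their values were seen. The members and lists were chosen with earlier results of these data known. The summing and call script was tested on simulated counts. Python 3.11.15, scanpy 1.11.5, scikit-learn 1.9.0, scipy 1.17.1, leidenalg 0.10.2 and igraph 0.11.9 were used. Alternatives covered scaling, minimum UMIs, fold, doublets, mitochondrial limit, depth, cluster resolution, clustering genes, cluster makeup, free RNA, the highest cell and the clusters nearest to fibroblasts (the last 2 added after the data were seen).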

Additional observations from a re-analysis of the deposited data

Results flagged for a closer look

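In carcinoma-like cells 5 members lay on opposite sides of equality in the tumour and in TDLN when NanoCa was set against mock, each with an interval that excluded 1. With 1 library per group and no test of the difference between tissues, these differences were not tested.

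Gclm was at log2 0.11 in the tumour and -0.61 in TDLN, and Gclc at 0.17 and -0.80. Both subunits of glutamate-cysteine ligase were called lower in TDLN and neither was called in the tumour. Both TDLN calls were lost in thinned cells and at 2-fold. Mt2 was at -0.34 in the tumour and 0.15 in TDLN, while its neighbour Mt1 was below equality in both. Srxn1 was at -0.14 and 0.20, and Txnrd1 at -0.051 and 0.22, all under 1.5-fold. In cells thinned to 1000 UMIs the tumour value of Txnrd1 was 0.21, on the side of TDLN, and that of Srxn1 was no longer below 0. Over the alternatives the TDLN value of Txnrd1 ran from 0.13 to 1.06, the upper end past 1.5-fold. The TDLN values rest on 331 cells with NanoCa and 1009 with mock, and the tumour values on 6357 and 5328.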

How the results depend on the processing

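No paired analysis was possible because each group has 1 library. Of 22 member ratios called for NanoCa against mock, 22 kept their call with trimmed mean of M values, median of ratios, at least 10 UMIs or a mitochondrial limit of 5%, 21 with members among the clustering genes or resolution 0.5, 20 without the highest cell of each library (chosen after the data were seen), 18 without doublet removal, 8 thinned to 1000 UMIs and 3 at 2-fold. Without the carcinoma-like clusters nearest to fibroblasts (also chosen after the data were seen) 1 of 1 did, with the same cluster makeup 12 of 12, and with free RNA subtracted 14 of 19, while 1 turned (Mt1 in TDLN B-like cells, 0.20). Of 40 called between tissues, 31 held at 2-fold and 28 thinned, and all 4 in carcinoma-like cells held without those clusters.

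Counts of members called moved by more than 1.5 times as follows, smaller moves not being listed (reported count in brackets, NanoCa against mock unless a tissue comparison is named). At 2-fold, higher calls were 0 in TDLN NK-like (1) and mature DC-like cells (2) and 0 between tissues in carcinoma-like cells with NanoCa (1) and mock (1). Lower calls at 2-fold were 1 in TDLN B-like cells (5) and 0 in TDLN NK-like (2), T-like (4), carcinoma-like (2), mature DC-like (1) and monocyte/macrophage-like cells (1), in tumour carcinoma-like cells (1), and between tissues in NK-like cells with NanoCa (1) and B-like cells with mock (1). At 10 UMIs, 1 was lower in tumour NK-like cells (0) and 1 between tissues in mock NK-like cells (0). With free RNA subtracted, lower calls were 3 in TDLN B-like (5), 1 in NK-like (2), 1 in T-like (4) and 0 in monocyte/macrophage-like cells (1), 1 in tumour NK-like (0), 0 in carcinoma-like (1) and 5 in monocyte/macrophage-like cells (3). Between tissues it left 2 higher in NanoCa B-like (5), 1 in NK-like (3) and 3 in T-like cells (6), 2 higher in mock B-like (4) and 0 in carcinoma-like cells (1), and 0 lower in mock B-like cells (1). Both scalings gave 5 lower in tumour monocyte/macrophage-like cells (3). Members among the clustering genes gave 1 higher in tumour T-like cells (0). Without doublet removal, higher calls were 0 in TDLN NK-like (1), 1 in mature DC-like (2) and 0 between tissues in mock carcinoma-like cells (1), and lower calls 2 in tumour B-like (0), 2 in NK-like (0), 0 in carcinoma-like cells (1) and 1 between tissues in mock NK-like cells (0). Thinned, higher calls were 0 in TDLN NK-like (1), 1 in carcinoma-like (0), 0 in mature DC-like (2) and 1 between tissues in NanoCa NK-like cells (3). Lower calls thinned were 3 in TDLN B-like (5), 0 in NK-like (2), carcinoma-like (2), mature DC-like (1) and monocyte/macrophage-like cells (1), 1 in tumour NK-like (0) and monocyte/macrophage-like cells (3), and 0 between tissues in NanoCa NK-like cells (1). Without the highest cells, 0 were higher in mature DC-like (2) and 2 lower in TDLN monocyte/macrophage-like cells (1). Thinning leaves fewer UMIs and 2-fold is stricter by construction; for the other shifts the cause was not tested.

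Resolution 0.5 gave no value for tumour T-like cells, and the same cluster makeup none for classes of 1 cluster or between tissues. The scalings moved the median of all genes by over 0.1 in some tissue comparisons, at most by -0.20 (T-like cells, NanoCa). Depth limits Nqo1, tested only in carcinoma-like cells, and the tumour B-like, tumour NK-like and TDLN NK-like classes, where 4 of 8 members reached 50 UMIs.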

Other observations

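Some classes had too few cells for the comparisons. Fibroblast-like cells (157 and 70 in the tumour, 48 and 95 in TDLN, NanoCa and mock) held 4296 and 3075 CPM of Mt1 in the tumour and 4438 and 2975 in TDLN, above carcinoma-like cells of the same library except in tumour mock (3248). Their Hmox1 was at 45.5 and 93.04 CPM in the tumour and 31.5 and 82.9 in TDLN. Endothelial-like cells of the tumour (77 and 60 cells) held 46.0 and 79.0 CPM of Hmox1. Neutrophil-like cells of the tumour (87 and 128 cells) held 332 and 299 CPM of Hmox1 from 40 and 67 UMIs, with a free RNA share of 59.0% and 64.4% of their UMIs by Rhox5.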
